A study of Mus musculus with 6 samples.

Results

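The 9 genes described here encode components and receptors of the complement system: the C1q chains C1qa, C1qb and C1qc, the components C3, C4b, Cfb and Cfp, and the anaphylatoxin receptors C3ar1 and C5ar1. They were found by symbol in a table of 27458 genes, in which all 9 were present, and all 9 were among the 11636 genes tested, those whose mean over the 6 libraries reached 1 FPKM. FPKM scales the fragments of a gene to its transcript length and to the depth of the library, so it can be compared between genes. RNA was sequenced from primary mouse bone marrow macrophages under M-CSF, the growth factor of this lineage, with 3 libraries from wild-type (WT) and 3 from RKIP knockout (KO) cells. RKIP is an inhibitor of Raf kinases encoded by Pebp1, and the comparison asked how macrophages differ when it is missing. Both groups had the same M-CSF treatment. The labels give neither the allele, strain, age nor sex of the mice. Nor do they say that each library had its own animal or culture, so the p-values rest on a spread that may be technical.

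Complement is a cascade of plasma and surface proteins that tags microbes and dying cells. The classical pathway starts when C1q, built from its A, B and C chains, binds a target and its attached proteases C1r and C1s cut C4 and C2. All pathways meet at C3, whose fragments are bound to the target, and the alternative pathway amplifies this step through factor B (Cfb) and properdin (Cfp). Small fragments released from C3 and C5 act on the receptors C3ar1 and C5ar1 of myeloid cells. Most components are made by the liver, but C1q is made mainly by macrophages and dendritic cells, and properdin by myeloid cells.

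Total estimated counts were 53188659 to 55255365 in the WT and 63607276 to 70059042 in the KO libraries. Pebp1, the targeted gene, stood at 33.2 to 39.2 FPKM in WT and was listed at 0 in all 3 KO libraries. Macrophage genes were abundant in every library, with Adgre1 (F4/80) at 282 to 292 FPKM in WT and 376 to 391 FPKM in KO. RNA of other cells was present as well. The summed level of 12 neutrophil markers was 77.5, 155 and 163 FPKM in the WT libraries and 7.58 to 8.17 FPKM in KO. That of 12 stromal and osteoblast markers was 1418 to 1530 FPKM in WT and 1435 to 1577 FPKM in KO, with Col1a1 at 451 to 512 and 430 to 499 FPKM. The summed monocyte markers were 30.3 to 31.9 FPKM in WT and 23.3 to 26.0 FPKM in KO, where F13a1 and Plac8 fell and Ccr2 rose 1.65-fold (edgeR, adjusted p = 5.19e-05). Those of osteoclasts were 68.1 to 76.9 and 45.7 to 47.7 FPKM, where Acp5, Ctsk and Mmp9 fell and Atp6v0d2 rose 1.61-fold (edgeR, adjusted p = 9.80e-06). The dendritic cell sum, 4.51 to 4.68 and 6.49 to 7.12 FPKM, came almost wholly from Itgax, the 1 marker of that list that was tested. In such bulk samples, fewer cells of a type and less RNA per cell cannot be told apart.

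In both genotypes C1qa, C1qb and C1qc had the highest levels of the 9 genes, followed by Cfp, C3ar1 and C5ar1, then C3, and last C4b and Cfb. In WT the means ran from 716 ± 24.5 FPKM (SD, n = 3) for C1qa, above 99.7% of tested genes, through 71.5 ± 0.849 FPKM for C5ar1, above 95.5%, to 1.41 ± 0.459 FPKM for Cfb, above 7.54%. Neighbours in this order did not overlap between libraries of a genotype, with 1 exception: C4b (1.42 to 1.86 FPKM) and Cfb (0.957 to 1.88 FPKM) overlapped in WT.

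By edgeR's quasi-likelihood test, 4 of the 9 genes were lower in KO at an adjusted p under 0.05 (C1qa, C1qb, C1qc and C3), the threshold used throughout, with adjustment over all genes tested. Among all 11636 genes 19.4% were called lower and 20.3% higher, 39.7% in all. The median log2 fold change (KO over WT) was -0.28 over the 9 genes and -0.01 over all tested genes. In this fit 0 members were higher, also at an unadjusted p under 0.05, and DESeq2 and limma likewise called 0 higher. With the length and GC correction, explained below, edgeR called 0 higher and 3 lower, and 1 was higher at an unadjusted p under 0.05 (Cfp). In the same 4 genes the FPKM of every KO library was below that of every WT library, a pattern found in 19.1% of tested genes.

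**Figure D1:**
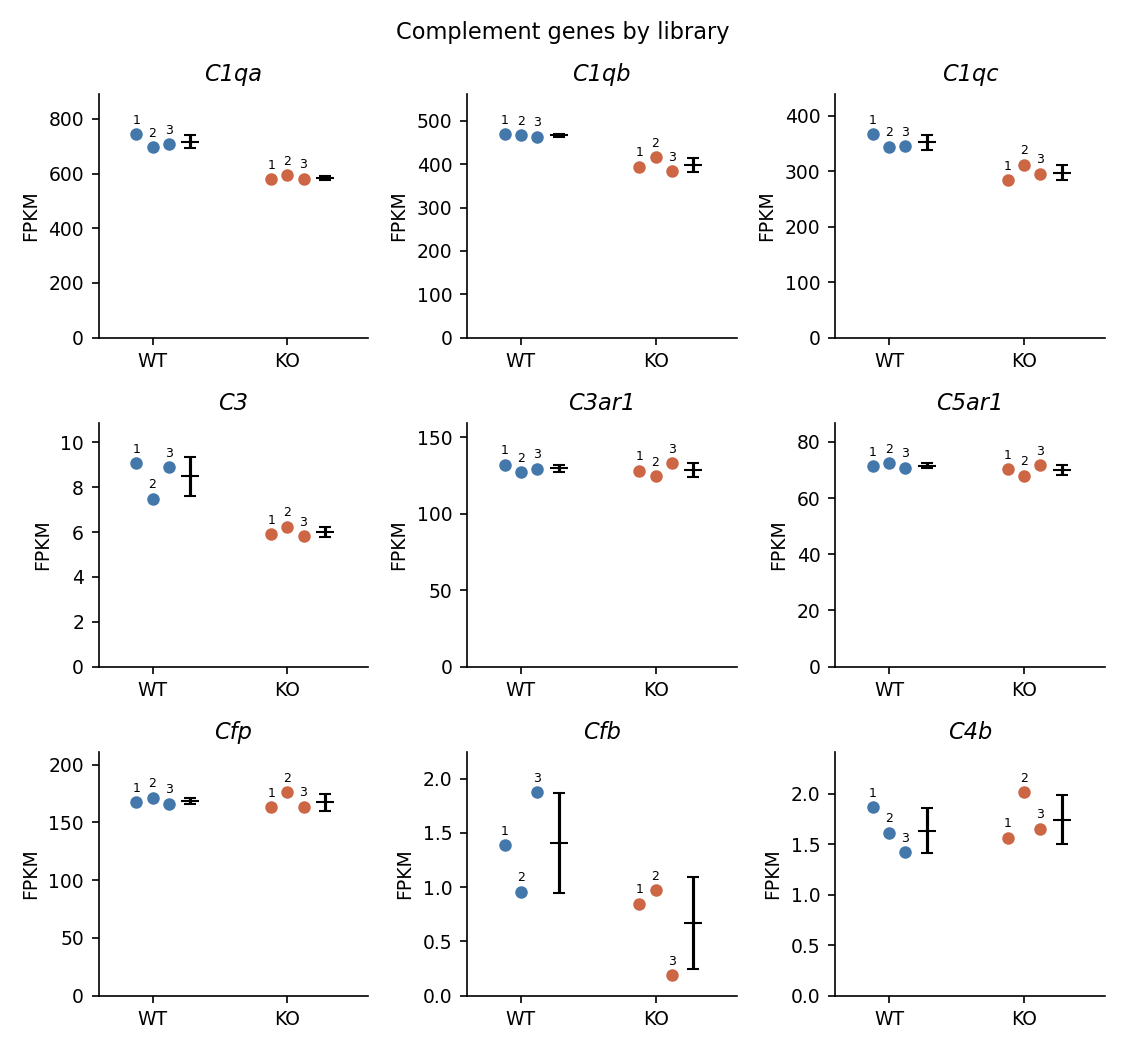
FPKM (vertical axis, from 0, with its own scale per gene) of the 9 complement genes in WT and KO; points are libraries with their replicate number, and bars are the mean ± SD over 3 libraries. C1qa, C1qb, C1qc and C3 do not overlap between genotypes, the other 5 genes do, and KO library 3 is lowest for Cfb at 0.189 FPKM.

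All 3 chains of C1q were lower in KO, by 1.21- to 1.27-fold. With a correction for transcript length and GC content, described below with its values, the call of C1qa held and those of C1qb and C1qc ended. C1qa, which encodes the A chain, stood at 744, 697 and 708 FPKM in WT libraries 1 to 3 and at 579, 593 and 580 FPKM in KO libraries 1 to 3. Every KO value was below the lowest WT value, and the mean fell from 716 ± 24.5 to 584 ± 7.49 FPKM, 1.27-fold in the fit (log2 fold change -0.35 ± 0.04, standard error; edgeR, adjusted p = 5.12e-05). C1qb, the B chain gene, read 469, 466 and 463 FPKM in WT and 394, 417 and 384 FPKM in KO. The groups did not overlap here either, and the fall was 1.21-fold (log2 fold change -0.28 ± 0.04, edgeR, adjusted p = 0.000301). C1qc, the C chain gene, had 367, 344 and 345 FPKM in WT and 284, 312 and 296 FPKM in KO, 1.23-fold lower (log2 fold change -0.30 ± 0.04, edgeR, adjusted p = 0.000277). The 3 genes together took 0.213 to 0.224% of all counts in WT and 0.168 to 0.177% in KO. Fold changes come from the scaling of edgeR, which makes falls larger and rises smaller than in FPKM. Serping1, described below, rose 1.19-fold in the fit and by 23.3% in FPKM. The FPKM means of C1qa, C1qb and C1qc were lower by 18.4%, 14.6% and 15.5%. Beside this, the summed level of 9 macrophage markers was 20743 to 22216 FPKM in WT and 18931 to 19217 FPKM in KO, most of it from Lyz2, with 4 markers called higher and 4 lower. The part of cell composition in the C1q result was not tested.

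The proportion of the chains to each other varied little. Per library, the FPKM of C1qa was 1.58, 1.49 and 1.53 times that of C1qb in WT and 1.47, 1.42 and 1.51 times in KO. These ranges overlapped, and the log2 ratio differed by -0.07 between genotypes against an SD of 0.04 within them. For C1qa over C1qc the ratio was 2.04 ± 0.0140 in WT and 1.97 ± 0.0692 in KO, and for C1qb over C1qc it was 1.33 ± 0.0407 and 1.34 ± 0.0446, again with overlap.

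The 3 C1q genes lie side by side on the minus strand of chromosome 4, within 18675 bp, in the order C1qb, C1qc and C1qa (coordinates of the table, identical in GENCODE M21 on GRCm38). C1qb spans 136880129 to 136886187, C1qc 136889804 to 136893065 and C1qa 136895917 to 136898803, each with 3 exons in its longest transcript, and 3616 and 2851 bp separate them. No other annotated gene overlaps them. Of the other genes within 100000 bp, Zbtb40 was tested and had a mean of 1.40 ± 0.0566 FPKM in WT and 1.58 ± 0.0650 FPKM in KO (log2 fold change 0.11 ± 0.07, standard error; edgeR, adjusted p = 0.249), and Ephb2 was below the filter, at 0.610 ± 0.0476 and 0.584 ± 0.00227 FPKM. The nearest other genes thus had low levels in both genotypes, beside C1q genes among the most abundant of the table.

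The RefSeq promoter table on GRCm38.p6 held 6 of the 9 genes, and C1qa, which also fell, was not among them. The 250 bases before the RefSeq start sites of C1qb and C1qc are shown. Both are on the minus strand and read 5′ to 3′ towards the start site: C1qb at chr4:136886201-136886450 and C1qc at chr4:136892915-136893164. Capitals mark matches, on either strand, to sites of factors known from macrophage genes.
C1qb: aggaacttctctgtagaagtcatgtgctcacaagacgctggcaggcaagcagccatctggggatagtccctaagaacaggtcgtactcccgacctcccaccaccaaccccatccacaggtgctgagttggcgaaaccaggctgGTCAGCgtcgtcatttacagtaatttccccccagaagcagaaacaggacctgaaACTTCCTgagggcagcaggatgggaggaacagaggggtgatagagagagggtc
C1qc: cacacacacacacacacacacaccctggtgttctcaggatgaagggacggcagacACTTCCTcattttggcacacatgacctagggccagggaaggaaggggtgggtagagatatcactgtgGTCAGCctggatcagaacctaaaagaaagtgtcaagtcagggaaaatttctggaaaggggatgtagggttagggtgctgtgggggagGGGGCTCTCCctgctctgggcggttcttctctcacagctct
Both hold 1 Maf half-site (GCTGAC, here on the other strand as GTCAGC), 107 to 102 bases before the start in C1qb and 128 to 123 in C1qc. Both also hold 1 ETS site of the kind bound by PU.1 (AGGAAGT, read as ACTTCCT), 53 to 47 bases before the start in C1qb and 195 to 189 in C1qc, and C1qc holds 1 match to the NF-kB consensus, 41 to 32 bases before it. None of these matches overlap one another. The GENCODE M21 span of C1qc reaches 136893065, which is inside its RefSeq window of 136892915 to 136893164. The Maf and NF-kB matches of C1qc thus lie within the gene as annotated there, and its ETS match lies before it. Of all 32851 promoter windows of this length, 12.9% hold the Maf half-site, 7.69% the ETS site and 7.25% the NF-kB consensus. Among the 6 member windows, 2 hold the Maf half-site and 3 the ETS site, including that of C5ar1, a gene not called. The interferon response element (in 2.98% of windows) had no match in any of the 6 member windows. A match is a stretch of letters and was not tested for binding.

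Some genes of factors that such sites are named for are given here from the same libraries. Maf, a transcription factor of macrophages, rose by 0.59 on the log2 scale (edgeR, adjusted p = 9.11e-07), with means of 56.3 ± 1.05 FPKM in WT and 87.9 ± 1.88 FPKM in KO. Spi1, which encodes PU.1, stood at 80.3 ± 2.63 and 77.9 ± 1.76 FPKM (log2 fold change -0.10, edgeR, adjusted p = 0.106). Irf8 stood at 17.1 ± 0.589 and 18.5 ± 0.437 FPKM, Irf1 had a log2 fold change of -0.13, and Rela, a subunit of NF-kB, stood at 25.8 ± 0.203 and 27.2 ± 2.74 FPKM in WT and KO, none of them past the threshold. Cebpb, a C/EBP factor, rose 4.63-fold, from 1.67 ± 0.240 to 8.07 ± 2.06 FPKM (adjusted p = 6.61e-06).

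Transcript length moved with the C1q result. C1qa, C1qb and C1qc have short transcripts of 1040, 1088 and 1203 bp, and of the 2907 shortest tested genes (38 to 1898 bp) 38.6% were called lower and 4.27% higher, with a median log2 fold change of -0.20. Of the 2907 longest (4627 to 40378 bp) 5.68% were lower and 46.9% higher, with a median of 0.15. When trends on transcript length and GC content, fitted per library, entered the model (the length and GC correction), C1qa remained lower (log2 fold change -0.14, edgeR, adjusted p = 0.00318). The calls of C1qb (-0.049, adjusted p = 0.304) and C1qc (-0.088, adjusted p = 0.0732) ended, while 16% of all genes were then called lower and 15% higher, 31% in all. Of short genes among the macrophage markers, Lyz2, which encodes lysozyme, had a log2 fold change of -0.27 without and -0.08 with the correction (edgeR, adjusted p = 5.97e-05 and 0.00664). Cd68, a lysosomal protein gene, had -0.15 and 0.060 (edgeR, adjusted p = 0.0120 and 0.233). These were chosen as examples, and not every short gene fell. Pf4, of 588 bp, had 0.27 without and 0.62 with the correction (edgeR, adjusted p = 0.000918 and 7.29e-06). The part of transcript length in the C1q fall was not tested.

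**Figure D2:**
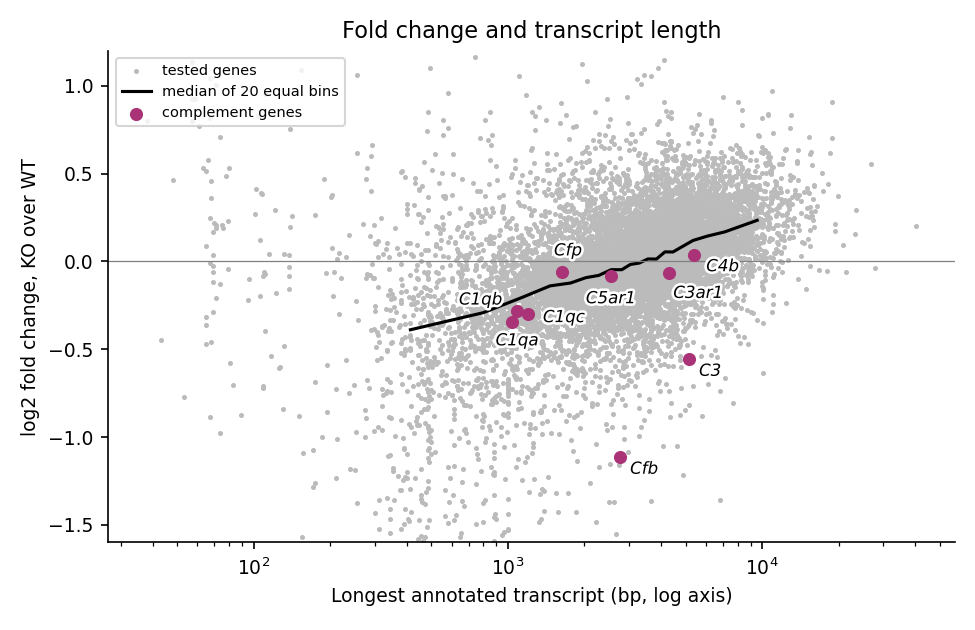
log2 fold change (KO over WT, vertical axis) against the length of the longest annotated transcript (bp, log axis) for the tested genes (grey), their median in 20 bins of equal size (line) and the 9 complement genes (purple); 108 genes lie beyond the vertical axis. The line rises from -0.39 in the shortest to 0.23 in the longest bin, the C1q genes and Cfp are among the short genes, and C3, at 5136 bp, lies well below the line.

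C3, the component on which all pathways converge, had the largest fold of the 4 called members, with an interval that overlapped that of C1qa (-0.43 to -0.26). WT libraries 1 to 3 had 9.07, 7.48 and 8.89 FPKM, against 5.90, 6.24 and 5.83 FPKM in the KO libraries. WT library 2 was the lowest of its group and still above every KO library. The mean fell from 8.48 ± 0.872 to 5.99 ± 0.221 FPKM, 1.47-fold (log2 fold change -0.56 ± 0.08, 95% interval -0.72 to -0.39; edgeR, adjusted p = 0.000182). Its transcript of 5136 bp is among the long ones, and after correction for length and GC it stood at -0.60 on the log2 scale (edgeR, adjusted p = 0.000175). Between 583 and 725 fragments per WT library and between 518 and 578 per KO library stand behind these values. Stromal cells also make C3. The summed stromal markers overlapped between genotypes (above). Of the 8 stromal markers tested, edgeR called 1 higher and 1 lower, and 1 higher and 4 lower with the length and GC correction. The shares over all tested genes were 20.3% and 19.4%, and 15% and 16% with the correction. The summed neutrophil markers were lower in every KO library, and all 8 tested were called lower. The part of stromal cells or neutrophils in the fall of C3 was not tested.

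The C3 gene spans 57203970 to 57228136 of chromosome 17 (minus strand), with 41 exons and the microRNA gene Mir6978 inside it. Its promoter window, chr17:57228137-57228386 on the minus strand, is shown because C3 had the largest called change of the 9 genes.
C3: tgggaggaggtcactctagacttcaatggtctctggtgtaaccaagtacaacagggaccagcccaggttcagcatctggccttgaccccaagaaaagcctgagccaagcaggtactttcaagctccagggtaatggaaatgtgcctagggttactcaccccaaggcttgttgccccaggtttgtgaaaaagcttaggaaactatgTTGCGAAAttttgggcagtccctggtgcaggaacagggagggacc
The capitals are the single match to the C/EBP site TTGCNNAA, 45 to 38 bases before the start. It is found in 9.56% of all promoter windows, and among the 6 members with a window C3 is the 1 that holds it.

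Of the alternative pathway genes, neither passed the test. Cfp encodes properdin, which stabilises the C3 convertase. It stood at 168, 171 and 166 FPKM in WT and 163, 176 and 164 FPKM in KO. KO library 2 was above and the other KO libraries below all WT libraries, and the interval of the log2 fold change was -0.15 to 0.03 (edgeR, adjusted p = 0.282). Corrected for length and GC, the sign turned, to 0.093 (edgeR, adjusted p = 0.0523).

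Cfb encodes factor B, the protease of the alternative C3 convertase, and its levels were low and scattered. They were 1.39, 0.957 and 1.88 FPKM in WT and 0.848, 0.970 and 0.189 FPKM in KO. KO library 3, with 10 fragments against 41.3 to 79.8 in the other libraries, was the lowest, and the groups overlapped, with KO library 2 above WT library 2. The fitted log2 fold change was -1.11 ± 0.44 (edgeR, adjusted p = 0.0647), and the gene was close to the filter, with a mean of 1.04 FPKM over all libraries.

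The low value of Cfb in KO library 3 had a counterpart in an overlapping gene. Cfb lies on chromosome 17 from 34856374 to 34862518 on the minus strand. The read-through gene Gm20547, which joins C2 and Cfb on the same strand, holds 79.5% of the exonic bases of Cfb. Gm20547 was listed at 0 counts in WT libraries 1 to 3 and KO libraries 1 and 2 and at 233 counts in KO library 3, in which Cfb had 40. Summed, both genes had 245, 165 and 319 counts in WT and 165, 201 and 273 in KO. In counts scaled to library size (CPM) this was 4.50 ± 1.47 in WT and 3.15 ± 0.672 in KO, with overlap, against 2.04 ± 1.29 in KO for Cfb alone. With the counts summed, an alternative chosen after seeing the data, the log2 fold change was -0.48 (95% interval -1.01 to 0.04; edgeR, adjusted p = 0.132). C2, the classical pathway protease whose gene lies 85 bp from Cfb, stood at 1.53 ± 0.201 FPKM in WT and 1.54 ± 0.293 FPKM in KO.

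C4b encodes C4, the component cut by C1s. It had 1.86, 1.61 and 1.42 FPKM in WT and 1.56, 2.01 and 1.65 FPKM in KO, with overlap. The log2 fold change was 0.04 (95% interval -0.24 to 0.32; edgeR, adjusted p = 0.839). C4b lies on chromosome 17 from 34728380 to 34743882, on the minus strand, with 41 exons. Its neighbour C4a, whose longest transcript is 96.1% identical over 5367 aligned bases, was listed at 0.0409 to 0.169 FPKM, so the division of reads between both copies is uncertain. In the window from 50000 bp before C4b to 50000 bp past Cfb, which also holds C2, 17 genes were listed and 9 tested. EdgeR called 0 of the 9, which include C4b and Cfb, higher or lower, beside 39.7% of all tested genes called in either direction. At an unadjusted p under 0.05, 1 was higher and 2 were lower, 1 of them Cfb (edgeR, unadjusted p = 0.0274). Limma called 0, and DESeq2 called 1 higher. Other edgeR settings called 1 higher (with the length and GC correction, and without KO library 3), 1 lower (counts divided by 4, and without KO library 2) or 2 lower (without WT library 2).

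The anaphylatoxin receptors were well expressed, and neither passed the test. C3ar1, the receptor of C3a, stood at 132, 127 and 129 FPKM in WT and 128, 124 and 133 FPKM in KO. The groups overlapped, and the log2 fold change was -0.07 (95% interval -0.15 to 0.02; edgeR, adjusted p = 0.234). After correction for length and GC, C3ar1, whose transcript has 4305 bp, was called lower, at -0.18 (edgeR, adjusted p = 0.000666). C5ar1, the receptor of C5a and a chemotactic receptor of myeloid cells, stood at 71.3, 72.4 and 70.8 FPKM in WT and 70.4, 68.0 and 71.7 FPKM in KO. Its log2 fold change was -0.08 (95% interval -0.18 to 0.01; edgeR, adjusted p = 0.134) and -0.02 with the correction (adjusted p = 0.737). C3ar1 lies on chromosome 6 from 122847138 to 122856161 and C5ar1 on chromosome 7 from 16246743 to 16259540, both on the minus strand with 2 exons and no overlapping gene, and Cfp on the X chromosome from 20925454 to 20931555 on the minus strand with 9 exons.

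**Figure D3:**
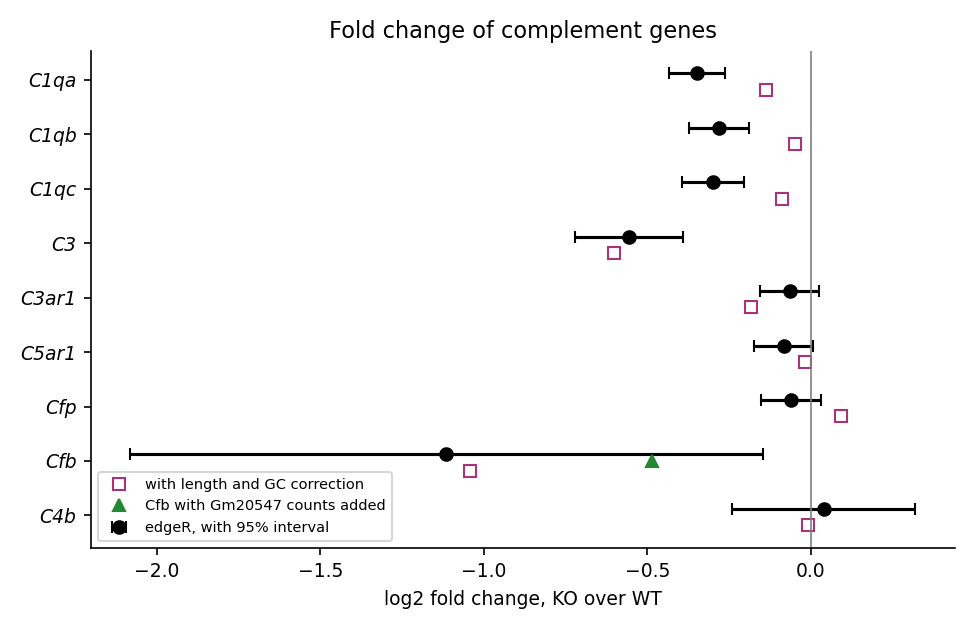
log2 fold change (KO over WT, horizontal axis) of the 9 complement genes from edgeR with its 95% interval (black), with the length and GC correction (open squares), and for Cfb with the counts of Gm20547 added (triangle). C1qa, C1qb, C1qc and C3 lie between -0.28 and -0.56; the correction moves the C1q genes towards 0 and leaves C3 at -0.60.

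Other complement genes, listed by role, went in both directions. Of 53 listed genes, 45 were in the table and 23 were tested, of which 7 were higher, 6 lower and 10 not called, with a median log2 fold change of 0.03. With the length and GC correction 5 were higher and 6 lower. The shares over all tested genes were 20.3% higher and 19.4% lower, and 15% and 16% with the correction. Of the initiators and proteases, 1 of 8 tested rose and 3 fell. C1s1, the C1s protease gene, rose from 5.12 ± 0.270 to 7.29 ± 0.418 FPKM, 1.37-fold (edgeR, adjusted p = 0.000639), while C1ra, the gene of its partner C1r, stood at 11.3 ± 0.764 FPKM in WT and 12.4 ± 0.505 FPKM in KO. Both have near copies in the genome, C1s2 and C1rb, with transcripts 95.9% and 98.0% identical over the aligned bases, so their levels are uncertain. Of the genes that encode ficolins, collectins and their proteases, 3 fell: the ficolin gene Fcna 1.40-fold, from 16.7 ± 1.42 to 12.4 ± 0.485 FPKM (adjusted p = 0.000605), the collectin gene Colec12 1.34-fold, from 36.9 ± 1.36 to 28.6 ± 0.700 FPKM (adjusted p = 2.87e-05), and the protease gene Masp1 1.23-fold, from 1.80 ± 0.0398 to 1.52 ± 0.133 FPKM (adjusted p = 0.0111). Masp1 overlaps Rtp4 on the other strand, and limma on log2(FPKM + 1) did not call it (adjusted p = 0.0534).

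Of the regulators of the fluid phase, Serping1 and Clu were higher in KO. Serping1, the gene of the C1 inhibitor that blocks C1r and C1s, rose from 40.2 ± 1.43 to 49.6 ± 0.738 FPKM, 1.19-fold (edgeR, adjusted p = 0.000791). Clu, the gene of clusterin, which inhibits the membrane attack complex, rose 1.70-fold from 0.760 ± 0.0548 to 1.35 ± 0.123 FPKM (adjusted p = 0.00208). Its mean over all libraries was just above the filter. On the membrane, Cr1l, the C3 convertase inhibitor Crry of rodents, rose 1.14-fold, from 5.25 ± 0.105 to 6.21 ± 0.296 FPKM (adjusted p = 0.00999), and turned to -0.018 with the correction (adjusted p = 0.787). Cd59a, which blocks C9, stood at 6.86 ± 0.658 FPKM in WT and 6.46 ± 0.778 FPKM in KO.

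Of other receptors and C1q-binding proteins, 2 of 10 tested rose and 3 fell, beside 39.7% of all tested genes called in either direction. Itgax, the alpha chain of complement receptor 4, rose 1.43-fold from 4.34 ± 0.142 to 6.44 ± 0.289 FPKM (edgeR, adjusted p = 0.000147). The alpha chain of complement receptor 3, Itgam, stood at 166 ± 1.82 FPKM in WT and 181 ± 4.06 FPKM in KO, and their shared beta chain Itgb2 at 209 ± 6.99 and 204 ± 8.18 FPKM, neither past the threshold. Cd93, once described as a C1q receptor, rose 1.27-fold, from 109 ± 3.87 to 143 ± 5.03 FPKM (adjusted p = 9.94e-05). Calr, the gene of calreticulin, a chaperone that binds C1q, fell 1.34-fold, from 414 ± 10.5 to 322 ± 12.8 FPKM (adjusted p = 1.40e-05). Lair1, an inhibitory collagen receptor that also binds C1q, fell 1.16-fold, from 4.04 ± 0.250 to 3.60 ± 0.0138 FPKM (adjusted p = 0.0194), a call that ended without WT library 1 (0.0810) or KO library 3 (0.0519), and that limma did not make on log2(FPKM + 1) (0.0796). C1qbp, which encodes a mitochondrial protein that binds the C1q heads, fell 1.12-fold (adjusted p = 0.0463), and that call ended when any 1 library was left out (adjusted p from 0.0563 to 0.140).

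**Figure D4:**
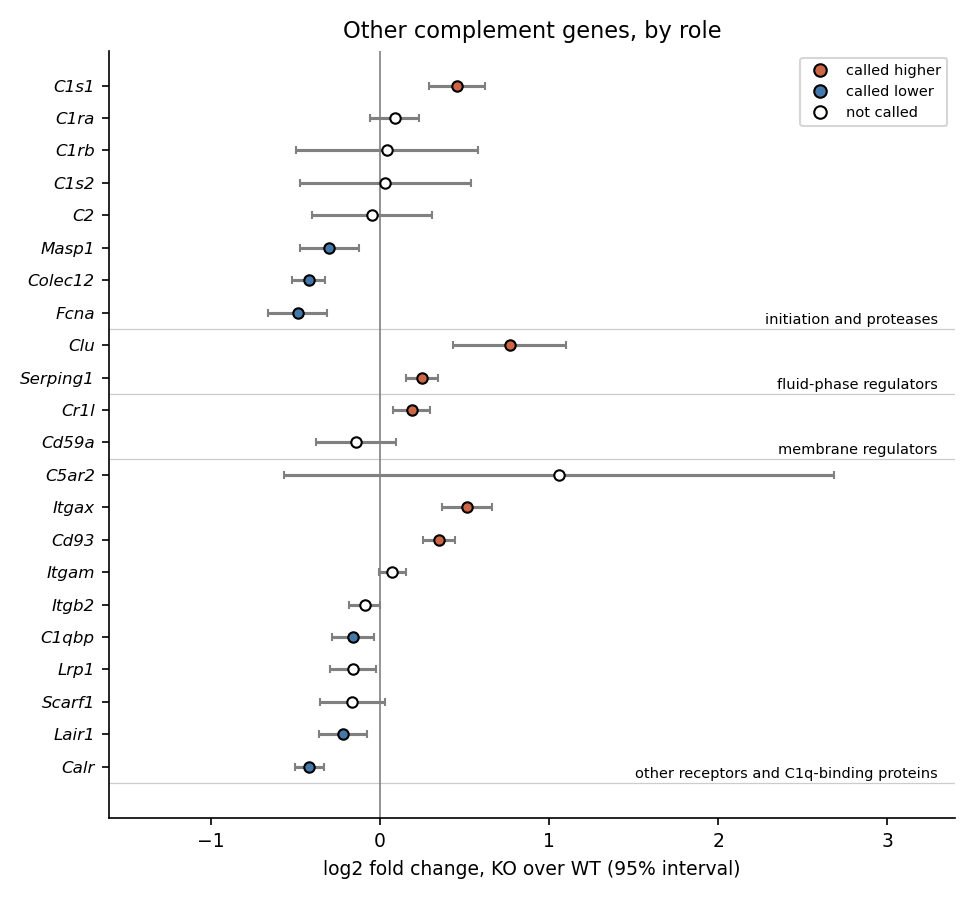
log2 fold change (KO over WT) with its 95% interval for tested complement genes outside the 9 (1 tested gene is not shown), grouped by role; filled points passed an adjusted p under 0.05 in edgeR (orange higher, blue lower). Fcna, Colec12 and Masp1 lie below 0, and the fluid-phase regulators Clu and Serping1 lie above it.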

How the data were processed

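RNA of 3 WT and 3 KO libraries was oligo(dT)-selected and built with dUTP strand marking, per the labels' protocols. The submitters' processing notes name cutadapt 1.9, HISAT2 2.0.4 and StringTie 1.3.4d, with no role or order. The genome build and whether counting used the strand are not given in the sources used here. The authors deposited FPKM and an estimated count for each gene and library. These counts are whole numbers with an excess at multiples of 4 (5769 values of 4 against 3204 of 3 and 2041 of 5), so a count divided by 4 is called fragments. Every value column was mapped to a library.

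The main test was the quasi-likelihood test of edgeR 4.0.16 under R 4.3.3, run on the estimated counts with TMM scaling, on genes averaging 1 FPKM or more, two-sided, with Benjamini-Hochberg adjustment over all of them. Standard errors are the absolute log2 fold change over the root of the F statistic, and intervals (95%) follow from them. The length and GC correction is a loess trend (span 0.3) per library on the longest GENCODE M21 transcript, used as an offset. 27382 gene IDs matched that annotation, 24732 with identical coordinates. Alternatives were DESeq2 1.42.0, limma 3.58.1 on log2(FPKM + 1) and log2(FPKM + 0.1), other scalings and filters, counts divided by 4, a replicate block and leaving out each library. The fits were also run on simulated counts with known changes. These held no trend on length or GC, so they cannot show how well the correction removes such a trend.

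Members and gene lists were chosen with earlier results of these data known. Named genes are the 9 members, Pebp1, transcription factors of a list and, per role of a wider list, every called gene and up to 3 tested genes of the highest mean FPKM, plus the most abundant gene of each marker list. C2, C4a, C1rb, C1s2, C5ar2, Vsig4 and genes beside the members were named after their values were seen. Some listed genes are not reported here. Replicate libraries differed by more than counting noise, and each was counted as 1 sample. Intervals cover no bias of read assignment.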

Additional observations from a re-analysis of the deposited data

How the results depend on the processing

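C1qa and C3 kept their direction and call in 17 of 17 alternatives (log2 fold change -0.38 to -0.14 and -0.64 to -0.44). With the length and GC correction C1qb (-0.049) and C1qc (-0.088) lost their calls, C3ar1 (-0.18) gained one, Cfp turned to 0.093 and C4b to -0.0076. Among other named genes the same setting turned Cr1l to -0.018, Spi1 to 0.0017, Cd68 to 0.060 and C2 to 0.032. The cause was not tested. With library totals as the only scaling, C5ar1 passed (-0.11, edgeR, adjusted p = 0.0475) and Rela turned to -0.0089. C2 turned to 0.0014 in limma on log2(FPKM + 1). Cfb passed with counts divided by 4 (-1.12, adjusted p = 0.0411). Leaving out 1 library gave -1.48 to -0.67 for Cfb, which passed without WT library 2 (adjusted p = 0.0466) or KO library 2 (0.0373), -0.071 to 0.14 for C4b, -0.054 to 0.075 for Rela and -0.18 to 0.092 for C2. A filter at a mean of 5 FPKM left out Cfb and C4b.

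Among all genes edgeR called 2364 higher and 2253 lower, 1969 to 2272 and 1794 to 2047 when 1 library was left out, and limma on log2(FPKM + 0.1) called 1500 lower. Higher genes were 51.2% of the calls, 63.5% and 64.0% in limma and 44.0% with library totals. The labels do not say that replicate numbers pair the libraries. Correlations of deviations between same-numbered libraries were 0.02, 0.19 and -0.04, and between other WT and KO libraries -0.17 to 0.16. With 3 libraries per group these values cannot show whether the libraries were paired. The fit with a replicate block called 2407 higher, 2294 lower and 4 of the 9 members lower. Depth limits Cfb and C4b most, with 10 to 207 fragments per library.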

Other observations

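Genes of the terminal pathway, which builds the membrane attack complex, were near 0 in both genotypes: of 7 listed, 5 were in the table and none reached the filter, with a highest value of 0.957 FPKM. C5ar2, the second receptor of C5a, was listed at 1.78, 1.40 and 0 FPKM in the WT libraries and 2.07, 2.44 and 2.39 FPKM in KO. It did not pass the test (edgeR, adjusted p = 0.284), and without WT library 3, where it is listed at 0, the log2 fold change was 0.48 (adjusted p = 0.0296). Vsig4, a complement receptor of tissue macrophages, was below the filter, at 0.961, 1.39 and 0.983 FPKM in WT and 0.676, 0.360 and 0.575 FPKM in KO, and had no test. Both were named after their values were seen.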
